A study of Mus musculus with 123 samples.

Results

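The Zfp genes examined here are mouse genes for zinc finger proteins. They were chosen from the deposited count table as the protein-coding genes whose name is Zfp followed by a number, leaving out Zfp42, Zfp57 and names that begin with Zfp36. Of 29022 genes in the table, 17983 were protein-coding and 375 fitted this rule after 9 were left out, and the 200 with the largest sum of unique molecular identifiers (UMIs) over all embryos were taken as the members. A UMI is a random tag that lets copies of 1 captured RNA molecule be counted once. The 200 members held 681164 UMIs, which was 0.623% of all UMIs and 96.2% of those of the 375 genes. The last members inside the threshold were Zfp72, Zfp953 and Zfp873 with 520, 508 and 506 UMIs, and the first outside it were Zfp78, Zfp658 and Zfp938 with 470, 463 and 454.

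The study asked what the transcription factors Oct4 (encoded by Pou5f1) and Sox2 do in the mouse embryo before implantation, and counted the RNA of single embryos at the 3′ end of transcripts. In the Oct4 line, Oct4 flox/flox females carrying ZP3-Cre were mated with Oct4 +/mKO2 males, and in the Sox2 line Sox2 flox/flox females carrying ZP3-Cre were mated with Sox2 +/EGFP males. ZP3-Cre is active in the growing oocyte, so every embryo of these matings lacked the maternal gene copy and the protein or RNA that the oocyte would have supplied. Embryos that also inherited the paternal null allele lacked the gene altogether (KO), and those with the intact paternal allele served as the control (Ctrl), which therefore carried the maternal deletion as well. Embryos of mothers with the intact gene are called MWT. Morulae were taken whole at E2.75, and inner cell masses (ICMs) were freed from the trophectoderm by immunosurgery as early ICM at E3.75 or late ICM at E4.5. The Ctrl and KO ICMs, like the Sox2 MWT early ICMs and the Oct4 MWT late ICMs, came from embryos held in 1 µM of the MEK inhibitor PD0325901 from E2.5, and for the Oct4 MWT early ICMs this is not given in the labels. Stage, culture, inhibitor and immunosurgery changed together between morula and ICM and cannot be told apart. Each Ctrl and KO group held 8 embryos, and MWT embryos were available for the Oct4 line as 7 morulae, 5 early ICMs and 8 late ICMs and for the Sox2 line as 7 early ICMs. The stage of the Oct4 MWT early and late ICMs was taken from the sample title, since another label of these samples gives an earlier stage.

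A zinc finger of this kind is a short fold held by a zinc ion that reads a few bases of DNA, and strings of fingers give a protein its preferred sequence. In the largest subfamily, the KRAB zinc finger proteins, a KRAB box beside the fingers recruits the corepressor Trim28 (KAP1) and with it the histone methyltransferase Setdb1, and so silences transposable elements and maintains imprints in the early embryo. KRAB zinc finger genes stand in clusters of recent duplicates, and the clusters differ greatly between mammals. Other members of the family have no KRAB box and include transcription activators, RNA-binding proteins and ubiquitin ligases.

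Total counts ran from 525755 to 1344035 UMIs per embryo, so that a CPM, which is the UMIs of a gene scaled to an embryo total of 1000000, was close to 1 UMI, and the members with at least 1 UMI numbered between 189 and 200 in an embryo. Pou5f1 was at 0.0 to 4.73 CPM in the 24 Oct4-KO embryos and at 13.4 to 93.6 CPM in their Ctrl. Sox2 was at 0.0 to 3.32 CPM in Sox2-KO morulae against 2.91 to 34.2 CPM in Ctrl, and at 7.74 to 36.4 CPM in Sox2-KO ICMs against 72.6 to 299.1 CPM, so that Ctrl and KO overlapped for Sox2 in morulae and not in ICMs. The summed level of 11 epiblast markers was 2556 CPM in Oct4 Ctrl early ICM and 3530 CPM in late ICM, with 957 CPM in the morula. Because each RNA molecule gives 1 tag at its 3′ end, levels of different genes are compared here as CPM without division by length. In single embryos fewer cells expressing a gene and less RNA per cell cannot be told apart.

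The translated GENCODE reading frames of 102 members held a KRAB-box pattern with a median of 11 fingers, and the other 98 members had a median of 7 fingers. The highest finger count was 36, and 5 members had none that matched the standard spacing. The KRAB-pattern members held 34.8% of the members' UMIs and the others 65.2%. In all, 119 members lay within 500 kb of another member, 84 of them with the KRAB pattern and 35 without. Chromosome 7 carried 43 members, chromosome 17 carried 24, chromosome 4 carried 16 and chromosome 13 carried 15.

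The 10 most abundant members held 39.3% of the members' UMIs. Zfp706, a small single-finger protein found in a screen for genes that embryonic stem cells need in order to leave self-renewal, led with 112777 UMIs. Part of the 3′ end of Zfp706, 75 bases or more, matched transcripts of 9 other annotated genes. Zfp706 was followed by Zfp207 (BuGZ, a partner of the spindle checkpoint protein Bub3) with 34380 UMIs and by the KRAB-pattern gene Zfp985 with 25763. Then came Zfp296, a nuclear protein linked to pluripotency and reprogramming, with 15220. Zfp593 (ribosome subunit assembly), Zfp106 (RNA binding), Zfp655, Zfp91 (a ubiquitin ligase), Zfp598 (a ubiquitin ligase that marks collided ribosomes) and Zfp280b had between 15003 and 12116 UMIs. These sums were used to choose the members and are given as a description.

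Added together, the members' RNA was lower in KO than in Ctrl ICMs. In the Oct4 line the 8 Ctrl early ICMs had between 5989 and 6783 CPM in the 200 genes, mean 6344 ± 252.9 (SD), and the 8 Oct4-KO early ICMs had between 4857 and 5466 CPM, mean 5188 ± 219.7. These ranges did not overlap. In late ICM the Oct4 Ctrl range of 5015 to 7051 CPM, mean 6201 ± 772.5, overlapped the Oct4-KO range of 4326 to 5645 CPM, mean 4930 ± 525.8. The Sox2-KO early ICMs, at 5491 to 6444 CPM with mean 5951 ± 303.7, overlapped the Ctrl range of 6175 to 7804 CPM with mean 6848 ± 502.8, and the Sox2-KO late ICMs, at 4707 to 5525 CPM with mean 5227 ± 287.7, lay below the Ctrl range of 5592 to 7435 CPM with mean 6255 ± 594.7. Morulae overlapped in both lines, with means of 6908 and 6475 CPM in Oct4 Ctrl and KO and of 6831 and 6642 CPM in Sox2 Ctrl and KO. In Oct4 early ICM both classes were lower in KO, the KRAB-pattern members at 2263 and 1840 CPM in Ctrl and KO and the others at 4082 and 3348 CPM. No test was made of these sums, since the genes were chosen on their abundance in the same embryos.

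**Figure D1:**
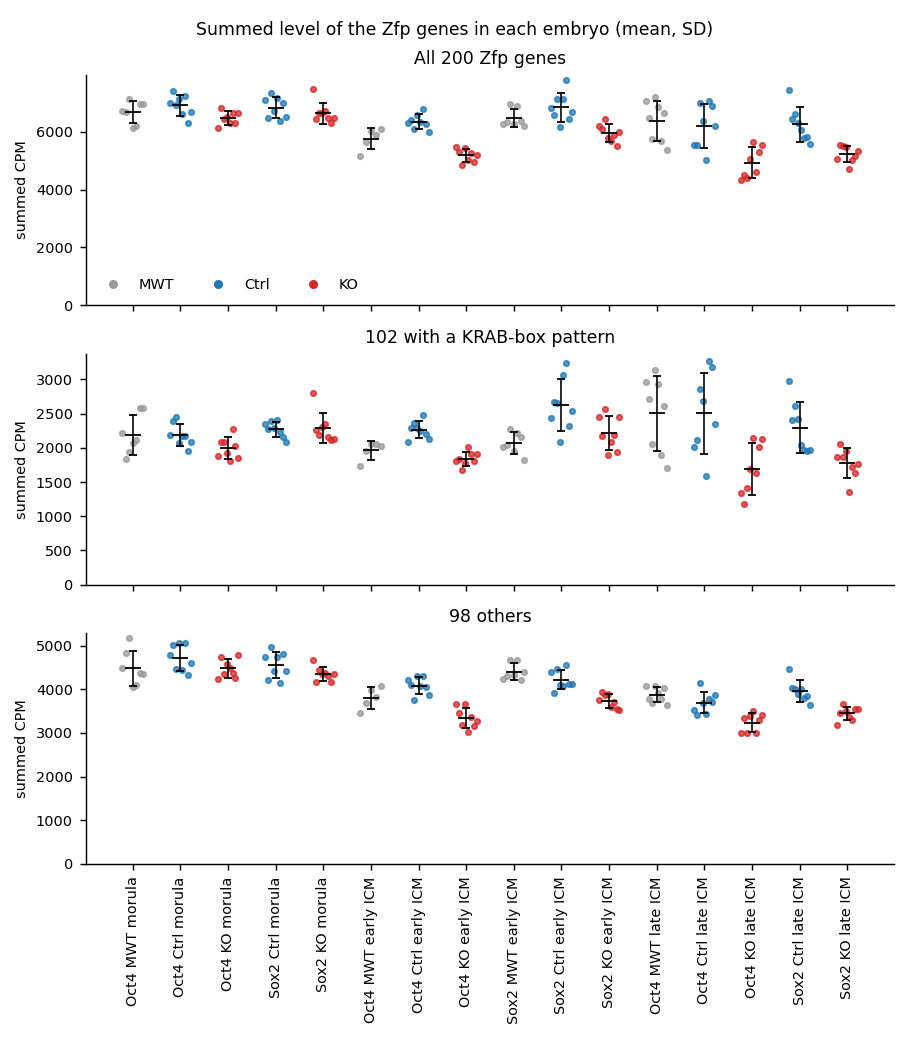
Summed level in CPM of all 200 Zfp genes (top), of the 102 with a KRAB-box pattern (middle) and of the 98 others (bottom) in each embryo. Each point is 1 embryo, the bars show mean and SD, and grey, blue and red mark MWT, Ctrl and KO; the Oct4-KO early ICMs at 4857 to 5466 CPM and the Sox2-KO late ICMs at 4707 to 5525 CPM sit below their Ctrl embryos in the top panel.

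Gene by gene, a member was called when its adjusted p was under 0.05 over all 14053 genes tested and its change was at least 2-fold, and "rose" and "fell" refer to such calls alone. In Oct4-KO early ICM 3 members rose and 19 fell, 11% of the 200 where 10.9% of all genes tested were called. In Oct4-KO late ICM 12 rose and 24 fell, 18% where 18.1% of all genes were called. In Sox2-KO early ICM 2 rose and 5 fell, 3.5% where 3.27% of all genes were called, and in Sox2-KO late ICM 9 rose and 11 fell, 10% where 6.95% were called. The share of members called was therefore close to the background except in Sox2-KO late ICM. Taken by direction, 9.5% of members and 6.11% of all genes fell in Oct4-KO early ICM, and 1.5% of members and 4.77% of all genes rose. In Oct4-KO late ICM 12% of members fell beside 8.85% of all genes, and 6% rose beside 9.25%. The Sox2-KO early ICMs had 2.5% of members lower beside 1.69% of all genes and 1% higher beside 1.57%, and the Sox2-KO late ICMs had 5.5% lower beside 3.61% and 4.5% higher beside 3.34%.

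In Oct4-KO morulae 1 member fell, Zfp990, where 0.804% of all genes were called. In Sox2-KO morulae no member was called, where 0.00712% of all genes were called; 8 members had an unadjusted p under 0.05 and DESeq2 also called none. The median log2 fold change of the members was -0.13, -0.10 and -0.23 in Oct4-KO morula, early ICM and late ICM, and -0.06, -0.10 and -0.08 in the Sox2-KO groups in the same order, while that of all genes tested lay between -0.01 and 0.01. Values above 0 made up 37.0% to 42.0% of the members in these 6 comparisons and 48.5% to 51.6% of all genes.

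Over the 6 comparisons 53 members were called at least once, 32 of them lower and 21 higher. No member was called in both directions, where 0.598% of all genes were. The 53 were 26.5% of the members, and 26% of all genes tested were called at least once in these comparisons. By direction, 16% of members and 13% of all genes were called lower, and 10.5% of members and 13.6% of all genes higher. KRAB-pattern members made up 16 of the 32 and 15 of the 21. The remaining 147 members were called in none of the 6, and 81 members were called in none of the 16 comparisons reported. The share of all genes called in none of the 16 was not computed, so the 81 are a description. Of the 53, 14 overlap another annotated gene and 9 have a 3′ end nearly identical to that of another gene, and the sources used here do not say whether strand was used in counting. The Oct4-line and Sox2-line embryos were different animals. In early ICM 21 of the 22 members called in Oct4-KO had the same sign in Sox2-KO, 95.5% beside 69.2% of all genes called in Oct4-KO. In late ICM 28 of 36 did, 77.8% beside 79.4%. Of the members called in Sox2-KO, 6 of 7 had the same sign in Oct4-KO in early ICM, 85.7% beside 76%, and 20 of 20 in late ICM, where all genes called gave 85.2%. These shares were not tested against each other.

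Zfp459, Zfp819, Zfp518b and Zfp35 fell in all 4 ICM comparisons. Zfp459 (ENSMUSG00000055560, chr13:67405709-67421418 on the minus strand of mm10) is a KRAB-pattern gene with 4 counted fingers, and the gene model Gm48900 overlaps it on the other strand. In Oct4 Ctrl early ICM it had 13.6, 17.1 and 29.2 CPM (lowest, median, highest) and in Oct4-KO 0.0, 2.84 and 7.29 CPM. The ranges were apart and the log2 fold change was -2.56 ± 0.46 (SE; adjusted p = 7.6e-06). In late ICM the Ctrl values were 6.68, 18.1 and 34.5 CPM and the Oct4-KO values 0.0, 1.96 and 6.24 CPM, a log2 fold change of -2.93 ± 0.50 (adjusted p = 1.53e-06). In the Sox2 line early ICMs had 7.26, 20.4 and 61.8 CPM in Ctrl and 1.04, 1.24 and 5.02 CPM in KO, the largest fall of the gene at -3.28 ± 0.45 (adjusted p = 7.89e-08). Late ICMs had 10.8, 30.1 and 43.0 CPM in Ctrl and 0.0, 3.52 and 8.13 CPM in KO (-2.69 ± 0.43, adjusted p = 1.02e-06). In none of the 4 comparisons did a KO embryo reach the lowest Ctrl embryo.

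Zfp819 (chr7:43607169-43618285, plus strand; KRAB pattern, 9 fingers), a KRAB-type protein of embryonic stem cells, gave the largest fall of all members in late ICM. The Oct4 Ctrl late ICMs had 9.57, 16.2 and 24.1 CPM, and the Oct4-KO embryos 0.0, 0.0 and 1.56 CPM. The log2 fold change was -4.63 ± 0.56 (adjusted p = 4.74e-11), a value that depends on the small count added in the fit because most KO embryos had no UMI. In Sox2 late ICM the Ctrl embryos had 18.8, 32.2 and 75.8 CPM and the KO embryos 1.16, 2.48 and 5.39 CPM (-3.67 ± 0.38, adjusted p = 1.88e-12). In early ICM the changes were -2.52 ± 0.50 in Oct4-KO (adjusted p = 6.38e-05) and -2.51 ± 0.38 in Sox2-KO (adjusted p = 7.49e-07), with Ctrl medians of 7.16 and 16.4 CPM and KO medians of 1.15 and 2.96 CPM. The late ICM ranges did not overlap in either line.

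Zfp518b (chr5:38668484-38684826, minus strand), a partner of the histone methyltransferase G9a, had 13.4, 30.4 and 55.2 CPM in Oct4 Ctrl late ICM and 2.8, 4.91 and 17.9 CPM in Oct4-KO, and changed by -2.12 ± 0.31 (adjusted p = 2.68e-08). In Sox2 late ICM the Ctrl embryos had 27.1, 42.5 and 57.4 CPM and the KO embryos 3.49, 6.64 and 15.2 CPM (-2.16 ± 0.29, adjusted p = 1.11e-08). In early ICM it fell by 1.28 ± 0.32 on the log2 scale in Oct4-KO (adjusted p = 0.00177) and by 2.08 ± 0.31 in Sox2-KO (adjusted p = 5.98e-07). Only the Oct4 line showed overlapping embryos of Ctrl and KO. Zfp35, a gene of 17 fingers, had medians of 24.3 and 6.29 CPM in Oct4 Ctrl and KO early ICM (-1.63 ± 0.30, adjusted p = 1.56e-05), and changed by -1.50, -1.11 and -1.56 in Oct4-KO late, Sox2-KO early and Sox2-KO late ICM.

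Zfp296, Zfp428, Zfp654 and Zfp988 fell at both ICM stages in Oct4-KO and in late ICM in Sox2-KO. The promoters of Zfp296 and Zfp428, as the RefSeq annotation of GRCm38.p6 places them, hold the octamer ATGCAAAT, the textbook recognition word of POU proteins such as Oct4, and that of Zfp791, which rose in Oct4-KO late ICM, holds it as well. The 250 bases before each start are shown 5′ to 3′ on the strand of the gene, with the octamer or its reverse complement ATTTGCAT in capitals, for Zfp296 (chr7:19577037-19577286, plus strand), Zfp428 (chr7:24506837-24507086, plus strand) and Zfp791 (chr8:85119692-85119941, minus strand).
Zfp296: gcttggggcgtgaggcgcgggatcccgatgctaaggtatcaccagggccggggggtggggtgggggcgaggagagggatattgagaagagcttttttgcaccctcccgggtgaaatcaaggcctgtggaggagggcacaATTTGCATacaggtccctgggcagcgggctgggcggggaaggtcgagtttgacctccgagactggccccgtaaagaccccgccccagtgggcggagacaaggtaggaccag
Zfp428: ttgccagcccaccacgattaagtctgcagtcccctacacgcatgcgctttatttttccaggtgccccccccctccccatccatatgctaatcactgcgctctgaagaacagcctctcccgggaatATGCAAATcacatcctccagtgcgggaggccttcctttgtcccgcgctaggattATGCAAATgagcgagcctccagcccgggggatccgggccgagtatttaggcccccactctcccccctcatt
Zfp791: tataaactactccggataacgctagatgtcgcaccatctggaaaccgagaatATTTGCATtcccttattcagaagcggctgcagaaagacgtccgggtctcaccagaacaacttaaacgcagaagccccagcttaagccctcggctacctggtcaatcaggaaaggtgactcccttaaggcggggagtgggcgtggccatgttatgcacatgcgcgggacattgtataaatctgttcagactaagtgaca
The octamer stands 111 to 104 bases before the start of Zfp296, 125 to 118 and 71 to 64 bases before that of Zfp428, and 198 to 191 bases before that of Zfp791. These are RefSeq starts: the gene as placed in the deposited table begins at chr7:24507006 for Zfp428, before the second octamer, and spans chr8:85108553-85123095 for Zfp791, so that the window shown lies inside it. It was found on either strand in 7 of the 200 RefSeq promoters that 161 members have, 3.5% beside 1.601% of 32851 promoters of all genes. The other 4 were those of Zfp120, Zfp345, Zfp207 and Zfp263, none of which was called in a KO comparison. A match of letters in this window is a description and not evidence of a bound site.

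Zfp296 (chr7:19577287-19580656, overlapped on the other strand by Gemin7) had 92.3, 170.1 and 202.9 CPM in Oct4 Ctrl early ICM and 27.2, 54.4 and 114.9 CPM in Oct4-KO. It changed by -1.34 ± 0.29 (adjusted p = 0.00027). In late ICM the values were 91.3, 120.8 and 187.0 CPM in Oct4 Ctrl and 17.5, 49.3 and 100.7 CPM in Oct4-KO (-1.28 ± 0.31, adjusted p = 0.000516). Sox2 Ctrl late ICMs had 105.3, 197.3 and 408.8 CPM and Sox2-KO 51.7, 106.7 and 134.5 CPM (-1.12 ± 0.28, adjusted p = 0.00287), and this call was lost when the label set of the late embryos was entered as a block. In Sox2-KO early ICM the change of -0.64 had an adjusted p of 0.178. Ctrl and KO embryos of Zfp296 overlapped in each of these comparisons.

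Zfp428 (chr7:24507006-24515682, plus strand) had 14.5, 29.4 and 53.6 CPM in Oct4 Ctrl late ICM and 1.45, 4.0 and 6.24 CPM in Oct4-KO, without overlap (-2.89 ± 0.32, adjusted p = 1.2e-12). In early ICM it changed by -1.96 ± 0.33 in Oct4-KO (adjusted p = 2.33e-06). In Sox2 late ICM the medians were 48.4 CPM in Ctrl and 14.8 CPM in KO (-1.47 ± 0.25, adjusted p = 3.38e-06), and the difference between the Oct4-KO and Sox2-KO effects in late ICM was -1.42 (adjusted p = 0.0163). The Sox2-KO change in early ICM was -0.87, under 2-fold.

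Zfp654 (chr16:64780347-64851652, minus strand) had 23.1, 31.4 and 48.6 CPM in Oct4 Ctrl early ICM and 6.07, 9.95 and 12.2 CPM in Oct4-KO, again without overlap (-1.75 ± 0.26, adjusted p = 5.3e-08). It changed by -2.03 ± 0.27 in Oct4-KO late ICM (adjusted p = 9.6e-10) and by -1.54 ± 0.24 in Sox2-KO late ICM (adjusted p = 5.86e-07). Its Sox2-KO change of -0.93 in early ICM passed the adjusted p at 0.00277 but not the 2-fold minimum. Zfp654 also rose from morula to early ICM in both Ctrl lines, by 1.27 and 1.40 on the log2 scale.

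**Figure D2:**
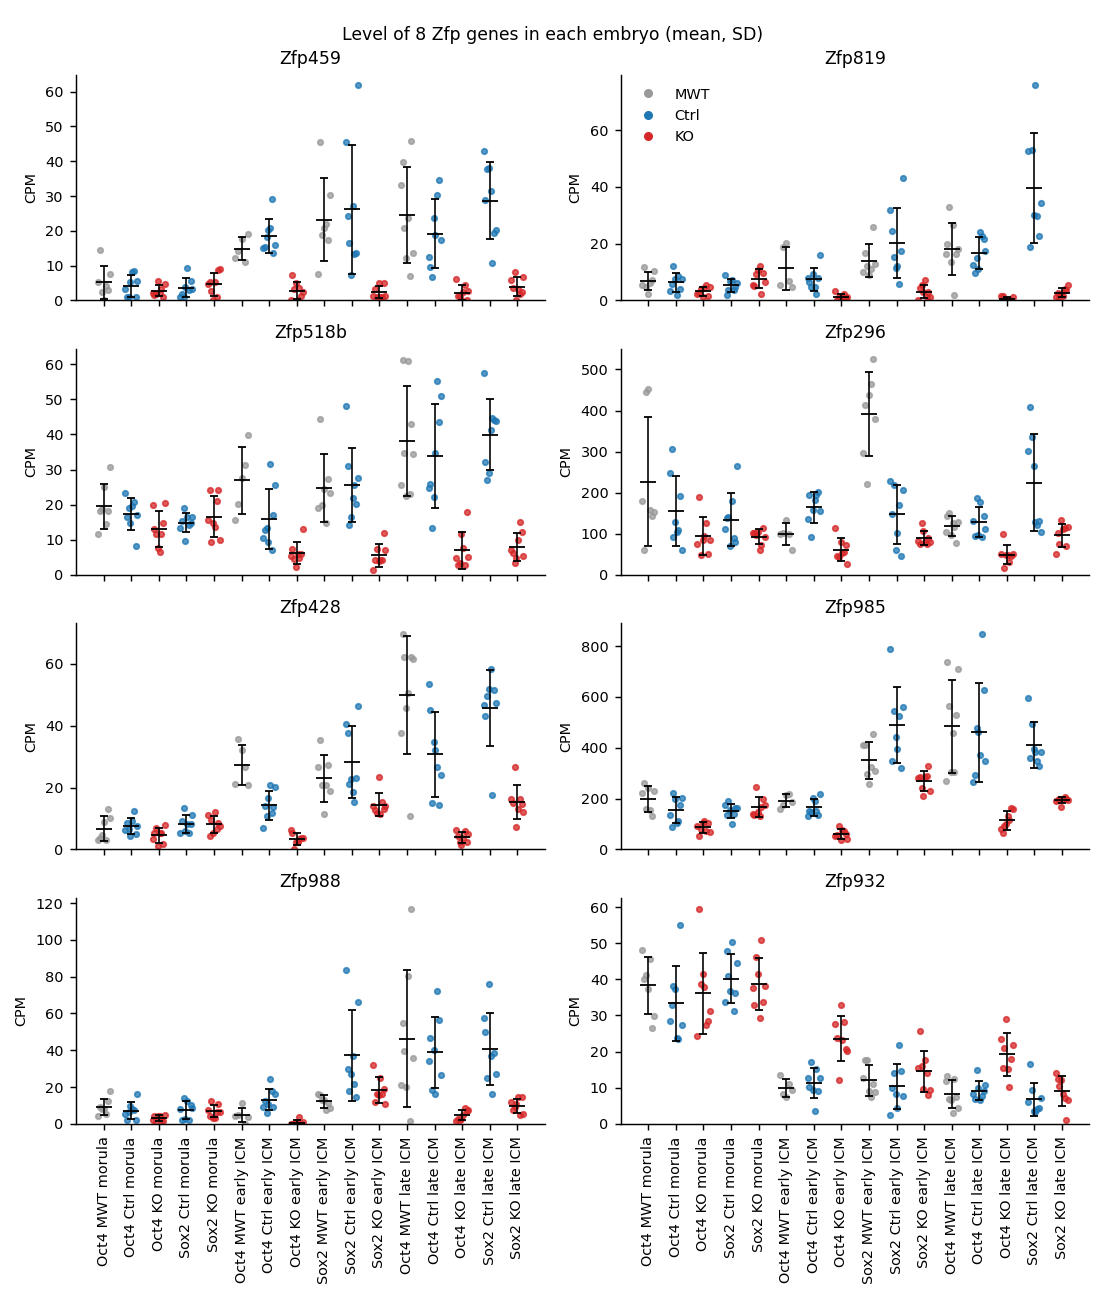
Level in CPM of 8 Zfp genes in each embryo of the 16 groups, ordered by stage. Points are embryos, bars show mean and SD, and grey, blue and red mark MWT, Ctrl and KO; Zfp459 and Zfp819 stay at or below 8.13 CPM in every KO ICM, and Zfp932 is highest in morulae and higher in Oct4-KO than in Ctrl ICMs.

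Among members with a described role, Zfp281 and Zfp292 were called in Oct4-KO and not in Sox2-KO. Zfp281 (chr1:136624901-136630053, plus strand), a member of the pluripotency network that binds the NuRD complex and Tet1, had 45.0, 62.2 and 83.0 CPM in Oct4 Ctrl early ICM and 15.4, 25.1 and 41.5 CPM in Oct4-KO. The 2 groups did not overlap (-1.18 ± 0.24, adjusted p = 7.04e-05), and late ICM gave -1.45 ± 0.26 (adjusted p = 3.11e-06). In Sox2-KO the changes were -0.27 in early ICM (adjusted p = 0.559) and -0.68 in late ICM (adjusted p = 0.0366), and for Zfp281 the difference between the effects of the 2 losses was not called at either stage. Zfp292 (chr4:34803113-34882960, minus strand), a large zinc finger transcription factor, had 57.5, 88.9 and 116.3 CPM in Oct4 Ctrl early ICM and 20.8, 23.2 and 34.5 CPM in Oct4-KO (-1.69 ± 0.22, adjusted p = 9.64e-10), with -1.80 ± 0.24 in late ICM (adjusted p = 1.95e-09). In Sox2-KO early ICM Zfp292 changed by -0.59 (adjusted p = 0.0806), and the difference between the Oct4-KO and Sox2-KO effects there was -1.10 (adjusted p = 0.013), a call lost with thinned counts. The Sox2-KO late ICM change of Zfp292 was -0.91 (adjusted p = 0.0027), under 2-fold, and the late difference of -0.89 was not called (adjusted p = 0.0803).

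Of 27 members on the list of genes with a described role, 3 fell and 1 rose in Oct4-KO early ICM (Zfp296, Zfp281 and Zfp292 lower, Zfp932 higher), where 10.9% of all genes were called. Zfp703 rose besides them in late ICM, where 18.1% were called. In Sox2-KO late ICM Zfp296 fell and Zfp809 rose, where 6.95% were called. Zfp57, an imprint-maintaining KRAB protein, is left out by the rule for members and is described with the genes left out. Zfp445, which maintains imprints, had medians of 38.1 and 39.4 CPM in Oct4 Ctrl and KO early ICM and of 16.7 and 17.1 CPM in late ICM. Zfp568, which silences the placental promoter of Igf2, had medians of 72.5 and 74.3 CPM in Oct4 Ctrl and KO late ICM and of 93.4 and 89.4 CPM in Sox2 Ctrl and KO late ICM.

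Zfp809, which silences proviruses through the proline tRNA primer binding site, had 4.73, 9.86 and 22.7 CPM in Sox2 Ctrl late ICM and 4.95, 13.5 and 61.1 CPM in Sox2-KO. The groups overlapped, 6 of 8 KO embryos were above the Ctrl median, and the log2 fold change of 1.01 ± 0.28 (adjusted p = 0.00838) was lost in 5 of the alternative fits. Zfp932, a KRAB protein that represses endogenous retroviruses, had 3.65, 11.4 and 17 CPM in Oct4 Ctrl early ICM and 12.2, 23.6 and 32.9 CPM in Oct4-KO (1.12 ± 0.26, adjusted p = 0.000768). It had 6.7, 8.67 and 15 CPM in Oct4 Ctrl late ICM and 10.1, 19.4 and 29.0 CPM in Oct4-KO (1.15 ± 0.29, adjusted p = 0.00119). Ctrl and KO embryos of Zfp932 overlapped at both stages, and both calls were lost when the counts of all embryos were thinned to the lowest total. Part of the 3′ end of Zfp932 matched transcripts of Gm15446 and Gm17655.

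Of the 12 members that rose in Oct4-KO late ICM and the 9 that rose in Sox2-KO late ICM, Zfp395 and Zfp251 were called in both, 1% of the members where 1.52% of all genes were called higher in both. Zfp395 (chr14:65358389-65398930, plus strand), one of the 5 members with no finger of standard spacing, had 10.9, 15.5 and 28.5 CPM in Oct4 Ctrl late ICM and 14, 53.9 and 72.5 CPM in Oct4-KO (1.71 ± 0.26, adjusted p = 7.98e-08). The Sox2 line had, in late ICM, 3.55, 16.1 and 32.5 CPM in Ctrl and 32.9, 59.8 and 77.8 CPM in KO, without overlap (1.94 ± 0.25, adjusted p = 2.69e-09). In the Ctrl embryos Zfp395 fell from early to late ICM, with log2 changes of -1.14 and -1.35 in the 2 lines. Zfp251 (chr15:76851609-76871435, minus strand) had medians of 5.42 and 12.9 CPM in Oct4 Ctrl and KO late ICM (1.35 ± 0.38, adjusted p = 0.00303) and of 5.31 and 11.4 CPM in Sox2 Ctrl and KO late ICM (1.25 ± 0.36, adjusted p = 0.00939).

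Zfp248 and Zfp9, neighbouring KRAB-pattern genes on the minus strand of chromosome 6 (chr6:118427319-118455528 and chr6:118461950-118479320), rose in Sox2-KO at both ICM stages. Zfp248 had 3.32, 8.95 and 10.9 CPM in Sox2 Ctrl early ICM and 13.1, 38.8 and 65.8 CPM in Sox2-KO, without overlap (2.27 ± 0.34, adjusted p = 7.17e-07), and changed by 1.71 ± 0.36 in late ICM (adjusted p = 0.000245). In Oct4-KO its changes were -0.04 and 0.59, and the difference between the 2 effects in early ICM was -2.31 (adjusted p = 0.00105). Zfp9 had 6.15, 11.3 and 17.7 CPM in Sox2 Ctrl early ICM and 18.2, 25.8 and 37.1 CPM in Sox2-KO, again without overlap (1.32 ± 0.34, adjusted p = 0.00597), and rose by 1.78 ± 0.35 in late ICM (adjusted p = 7.77e-05).

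Zfp791, Zfp703, Zfp575 and Zfp7 were called higher in Oct4-KO late ICM and not in Sox2-KO late ICM, where Zfp791, Zfp703 and Zfp7 changed by 0.09, 0.65 and 0.50. The difference between the effects was called for Zfp575 and not for the other 3 (adjusted p = 0.0522, 0.0845 and 0.181 for Zfp791, Zfp703 and Zfp7). Zfp791 had 0.0, 2.81 and 6.68 CPM in Oct4 Ctrl late ICM and 5.8, 12.9 and 30.9 CPM in Oct4-KO (2.42 ± 0.48, adjusted p = 2.9e-05), where Gm45317 overlaps it on the other strand. Zfp703, a corepressor of the NET family, had medians of 1.52 and 7.12 CPM (2.29 ± 0.51, adjusted p = 0.000169). Zfp7, part of whose 3′ end matched a transcript of Gm49527, had 15.2, 19.9 and 21.8 CPM in Oct4 Ctrl and 21.7, 47.3 and 64.0 CPM in Oct4-KO (1.35 ± 0.27, adjusted p = 2.9e-05). Zfp575 had 0.0, 3.38 and 6.7 CPM in Oct4 Ctrl and 3.58, 14.3 and 20.3 CPM in Oct4-KO (1.97 ± 0.52, adjusted p = 0.0015), whereas the Sox2-KO late ICMs had 0.0, 0.0 and 1.18 CPM beside 1.11, 1.77 and 4.73 CPM in Ctrl. The difference between the 2 effects on Zfp575 was 4.25 (adjusted p = 0.00486), a size that depends on the small count added in the fit because most Sox2-KO embryos had no UMI. Ethe1 overlaps Zfp575. Part of the 3′ end of Zfp575 matched transcripts of 9 other annotated genes, among them Me3 and Olfr1055, which Zfp706 also matched. Zfp821 and Zfp239 rose in Sox2-KO late ICM, by 1.21 ± 0.27 (adjusted p = 0.000493) and 1.33 ± 0.37 (adjusted p = 0.00778), the latter call lost with thinned counts.

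**Figure D3:**
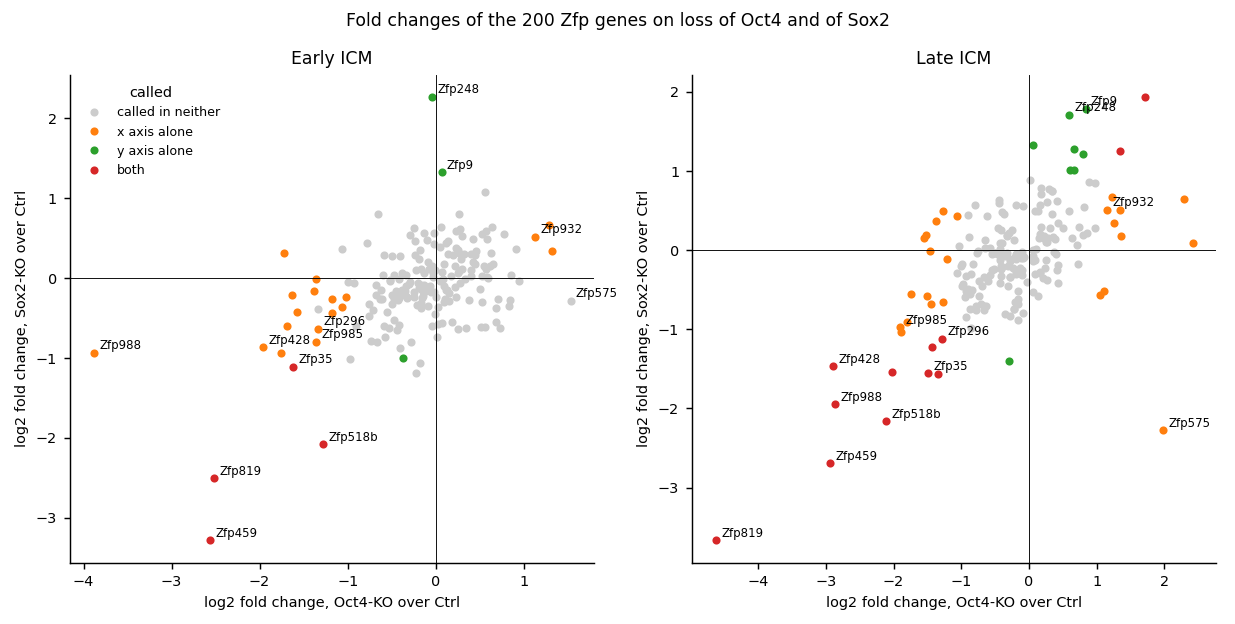
Log2 fold change of each of the 200 Zfp genes in Oct4-KO over Ctrl (x axis) and in Sox2-KO over Ctrl (y axis), for early ICM (left) and late ICM (right). Each point is 1 gene, and colour shows whether it was called in neither comparison, on 1 axis or in both; the 4 genes called on both axes in early ICM are Zfp459, Zfp819, Zfp518b and Zfp35, and 12 genes are called on both in late ICM, which are 2% and 6% of the members where 1.23% and 3.89% of all genes are called on both in the same direction.

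A test of the difference between the Oct4-KO and Sox2-KO effects called 6 members in early ICM, 3% where 5.52% of all genes were called, and 7 in late ICM, 3.5% where 6.3% were called. In early ICM the Oct4-KO effect lay below the Sox2-KO effect for Zfp988, Zfp248, Zfp979, Zfp949 and Zfp292 and above it for Zfp444. In late ICM it lay below for Zfp763, Zfp329, Zfp157, Zfp212, Zfp428 and Zfp930 and above for Zfp575. The late ICM difference was lost in 5 of 8 alternative fits for Zfp329 and in 3 of 8 for Zfp763. Zfp930 had not been named by the rule for named genes and was added because it completes the count. Zfp157, for example, had medians of 18.1 and 5.25 CPM in Oct4 Ctrl and KO late ICM (-1.55 ± 0.37, adjusted p = 0.000436). In Sox2 Ctrl and KO its medians were 15.3 and 11.5 CPM, although the change fitted to group means was 0.15 ± 0.33. The difference was -1.70 (adjusted p = 0.0171), a call lost with thinned counts.

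A group of 12 members with the KRAB pattern lies at the distal end of chromosome 4, between chr4:145510759 and chr4:147809788, and it was set apart after its values had been seen, so its counts are a description. Promoters of 4 of them, 2 of which fell in Oct4-KO at 1 stage and 2 at both, are printed to show how alike these duplicates are. The 250 bases before the RefSeq start are given 5′ to 3′ on the strand of the gene, with the 2 longest runs that all 4 share, AAGAACTGGGAAGCTAATTAA and AGGAGTGGCTCTGAGGAACCA (21 bases each), in capitals, for Zfp980 (chr4:145670447-145670696, plus strand), Zfp988 (chr4:147305354-147305603, plus strand), Zfp985 (chr4:147553027-147553276, plus strand) and Zfp979 (chr4:147642509-147642758, minus strand).
Zfp980: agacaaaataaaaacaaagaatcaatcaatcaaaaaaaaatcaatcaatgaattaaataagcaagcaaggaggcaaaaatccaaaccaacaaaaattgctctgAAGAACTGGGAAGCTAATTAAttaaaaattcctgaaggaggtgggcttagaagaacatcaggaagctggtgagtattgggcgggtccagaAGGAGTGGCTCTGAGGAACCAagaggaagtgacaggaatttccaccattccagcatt
Zfp988: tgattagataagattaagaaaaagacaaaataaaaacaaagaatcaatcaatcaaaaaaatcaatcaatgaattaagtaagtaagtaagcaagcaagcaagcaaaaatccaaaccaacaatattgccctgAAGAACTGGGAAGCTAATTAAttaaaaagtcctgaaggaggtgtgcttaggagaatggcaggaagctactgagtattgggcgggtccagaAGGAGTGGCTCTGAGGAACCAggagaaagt
Zfp985: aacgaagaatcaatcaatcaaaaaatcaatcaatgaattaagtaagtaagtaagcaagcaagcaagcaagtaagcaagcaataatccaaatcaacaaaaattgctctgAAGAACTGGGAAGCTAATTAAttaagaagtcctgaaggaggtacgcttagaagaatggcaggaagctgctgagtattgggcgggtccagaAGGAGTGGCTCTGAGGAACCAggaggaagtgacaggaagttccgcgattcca
Zfp979: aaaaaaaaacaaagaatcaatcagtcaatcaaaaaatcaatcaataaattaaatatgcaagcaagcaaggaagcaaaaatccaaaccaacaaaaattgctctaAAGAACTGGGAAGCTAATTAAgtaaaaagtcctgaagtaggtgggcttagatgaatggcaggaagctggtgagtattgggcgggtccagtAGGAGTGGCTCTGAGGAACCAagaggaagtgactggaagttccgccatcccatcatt
Aligned in pairs, these promoters had between 199 and 226 identical bases of 250. Reads come from 3′ ends, which were compared separately. Part of the 3′ end of Zfp985 matched transcripts of Gm13147 and Gm13212, and that of Zfp990 matched Gm21411. Those of Zfp978, Zfp979 and Zfp980 matched one another or Rex2 and Zfp600, whereas no such match was found for Zfp988.

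Together the 12 genes had 666.9, 858.9 and 1586 CPM in Oct4 Ctrl late ICM and 226.2, 347.8 and 496.1 CPM in Oct4-KO, and 394.5, 463.0 and 545.8 CPM in Oct4 Ctrl early ICM against 156.0, 221.2 and 286.7 CPM in Oct4-KO. The Ctrl and Oct4-KO ICMs did not overlap at either stage. In Sox2 late ICM the sums were 723.8, 854.4 and 1243 CPM in Ctrl and 394.9, 505.4 and 531.9 CPM in KO, also apart, and in Sox2 early ICM 680.6, 1034 and 1567 CPM in Ctrl overlapped 551.9, 727.0 and 846.4 CPM in KO. Their median log2 fold change was -0.44, -0.87 and -0.92 in Oct4-KO morula, early and late ICM and 0.02, -0.36 and -0.58 in the Sox2-KO groups. All 12 were below 0 in Oct4-KO early ICM, 10 in late ICM, and 10 and 9 in Sox2-KO early and late ICM. The calls were 5 lower in Oct4-KO early and 5 in late ICM, 3 lower in Sox2-KO late ICM, and 1 higher there, Zfp978 (1.27 ± 0.43, adjusted p = 0.0327). Of all genes tested 6.11%, 8.85% and 3.61% were called lower in these comparisons.

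Zfp985 (chr4:147553277-147585198, plus strand), the most abundant of the group, had 266.8, 415.9 and 848.3 CPM in Oct4 Ctrl late ICM and 65.7, 108.7 and 164.6 CPM in Oct4-KO (-1.90 ± 0.18, adjusted p = 4.17e-15). In early ICM it had 132.2, 151.3 and 218.5 CPM in Ctrl and 39.0, 58.5 and 92.2 CPM in Oct4-KO (-1.36 ± 0.19, adjusted p = 8.17e-09). Neither pair of ranges overlapped. In Oct4-KO morulae the change of Zfp985 was -0.78 (adjusted p = 0.00661) and in Sox2-KO late ICM -0.98 (adjusted p = 1.26e-05), both under 2-fold, although the Sox2 Ctrl range of 327.0 to 595.2 CPM lay above the KO range of 167.5 to 208.1 CPM.

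Zfp988 (chr4:147305674-147333734, plus strand) had 6.08, 11.7 and 24.3 CPM in Oct4 Ctrl early ICM and 0.0, 0.0 and 3.51 CPM in Oct4-KO (-3.89 ± 0.57, adjusted p = 5.79e-08). With 5 of 8 KO embryos at 0, the size of this change depends on the small count added in the fit. It had 16.1, 37.4 and 72.3 CPM in Oct4 Ctrl late ICM and 1.56, 3.97 and 8.7 CPM in Oct4-KO (-2.86 ± 0.39, adjusted p = 2.81e-09), and the ranges of both stages were apart. In Sox2 late ICM the medians were 37.8 and 10.1 CPM (-1.95 ± 0.34, adjusted p = 8.37e-06). In Sox2-KO early ICM Zfp988 changed by -0.94 (adjusted p = 0.049), and the difference between the 2 effects there was -2.95 (adjusted p = 0.00191), a size with the same limit.

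Zfp990 (chr4:145510759-145539188, plus strand) was the member called in Oct4-KO morulae. The Ctrl morulae had 8.24, 42.8 and 57.5 CPM and the KO morulae 8.74, 12.4 and 27.0 CPM, with overlap at the low end (-1.27 ± 0.33, adjusted p = 0.022), and the call was lost with thinned counts. It also fell in Oct4-KO ICMs, with changes of -1.58 ± 0.38 in early ICM (adjusted p = 0.000893) and -1.51 ± 0.32 in late ICM (adjusted p = 6.88e-05). Zfp992 fell in late ICM in both lines, with changes of -1.44 ± 0.25 (adjusted p = 1.64e-06) and -1.22 ± 0.25 (adjusted p = 0.000113), and so did Zfp991, whose calls, at adjusted p of 0.042 and 0.0489, were lost in several alternative fits. Part of the 3′ end of Zfp991 matched a transcript of Zfp992, so some reads of the 2 genes may not be told apart.

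**Figure D4:**
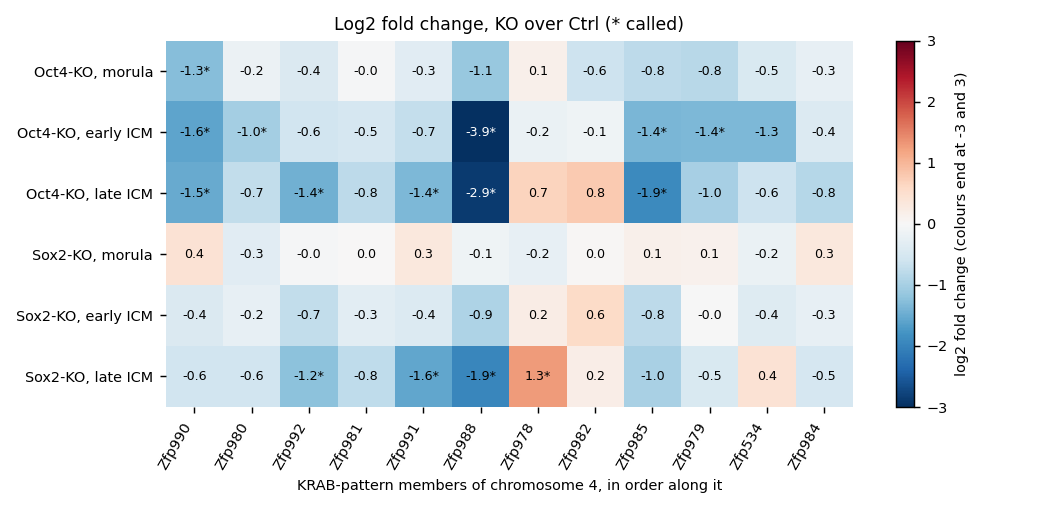
Log2 fold change of KO over Ctrl for the 12 KRAB-pattern genes at the distal end of chromosome 4, in their order along the chromosome (x axis), in the 6 KO comparisons (y axis). Each cell prints its rounded value, blue is lower and red higher in KO with the colours ending at -3 and 3, and an asterisk marks a call; the Oct4-KO rows hold 5 calls in each ICM stage and the Sox2-KO morula row none.

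Values of the 5 other clusters of 5 or more members are given side by side, and no difference between clusters was tested. On chromosome 13 (chr13:67339306-67729173) 9 members included 1 call in each ICM comparison, Zfp459, which was lower. Of all genes 6.11% and 8.85% were called lower in Oct4-KO early and late ICM, and 1.69% and 3.61% in Sox2-KO. The median change of the 9 in Oct4-KO was 0.08 in early and -0.32 in late ICM. In Sox2-KO the same 9 had medians of -0.44 in early ICM, with 9 of 9 below 0, and of -0.28 in late ICM. On chromosome 17 (chr17:21008903-22361400) 10 members had a median of 0.41 in Oct4-KO late ICM, with 3 higher and none lower where 9.25% of all genes were called higher, and of -0.07 in Sox2-KO late ICM with none called. The other chromosome 17 cluster (chr17:32765496-33631779) had 9 of 10 members below 0 in Oct4-KO late ICM, with a median of -0.30. Of these 1 was called lower, where 8.85% of all genes were. In Oct4-KO early ICM 3 of the 10 were below 0, with a median of 0.04. A chromosome 7 cluster of 5 members that includes Zfp428 and Zfp575 (chr7:24081924-25083492) had a median of -1.04 in Sox2-KO late ICM with 5 of 5 below 0. In Oct4-KO late ICM its changes ran from -2.89 to 1.97, median -0.39, with 2 called lower and 1 higher where 8.85% and 9.25% of all genes were. A chromosome 7 cluster of 6 members (chr7:127233061-127885996) had a median of 0.20 in Oct4-KO late ICM, with 1 called higher where 9.25% of all genes were. In Sox2-KO late ICM its median was 0.05, with none called.

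Between morula and early ICM 24 members rose and 35 fell in Oct4 Ctrl, 29.5% where 29% of all genes were called, and 27 rose and 28 fell in Sox2 Ctrl, 27.5% where 31.9% were called. Of these, 10 rose in both lines, 5% of the members where 8.12% of all genes rose in both, and 12 fell in both, 6% where 7.55% of all genes did. Zfp771, singled out after its values were seen, changed by -1.04 in Oct4 Ctrl and by 1.98 in Sox2 Ctrl. Zfp606, a KRAB-pattern gene (chr7:12478293-12496235, plus strand), had 0.0, 1.89 and 3.09 CPM in Oct4 Ctrl morula and 7.29, 18 and 30.4 CPM in early ICM, without overlap (3.25 ± 0.44, adjusted p = 8.5e-10). It rose by 1.68 ± 0.38 in Sox2 Ctrl (adjusted p = 0.000114), and then fell from early to late ICM, with changes of -1.01 and -1.18 in the 2 lines, calls that were each lost in 3 of 8 alternative fits.

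Zfp281 had 1.94, 11.4 and 21.3 CPM in Oct4 Ctrl morula and 45.0, 62.2 and 83.0 CPM in early ICM (2.43 ± 0.26, adjusted p = 1.63e-13), and rose by 1.59 ± 0.24 in Sox2 Ctrl (adjusted p = 1.62e-08). Zfp459 rose by 1.97 and 2.76 in the 2 lines. Of the 10 that rose in both, Zfp606, Zfp459, Zfp37, Zfp281, Zfp991, Zfp654 and Zfp512 (the last outside the naming rule) were called lower in at least 1 Oct4-KO ICM comparison, and Zfp516 in Sox2-KO late ICM. These comparisons share the Ctrl early ICMs with the KO comparisons, so the values are set side by side and their agreement was not counted as a result. The same share among all genes that rose in both lines was not computed.

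Among the members that fell after the morula stage, Zfp932 had 23.6, 30.8 and 55.1 CPM in Oct4 Ctrl morula and 3.65, 11.4 and 17 CPM in early ICM (-1.65 ± 0.26, adjusted p = 5.04e-08), and -1.97 ± 0.25 in Sox2 Ctrl (adjusted p = 8.79e-11). Zfp51 had 30.2, 41.7 and 68.9 CPM in Oct4 Ctrl morula and 10.7, 13 and 19 CPM in early ICM (-1.87 ± 0.22, adjusted p = 1.37e-11). Zfp821 fell as well, with changes of -1.79 and -1.64 in the 2 lines, and Zfp672 with -1.92 and -2.75. Zfp706, the most abundant member, had 1404, 1683 and 2138 CPM in Oct4 Ctrl morula and 630.0, 772.1 and 948.8 CPM in early ICM (-1.25 ± 0.12, adjusted p = 2.66e-16). In Sox2 Ctrl its medians were 1405 and 928.8 CPM, a change under 2-fold. The summed level of 9 oocyte markers moved with this step, from 66.5 CPM in Oct4 Ctrl morula to 8.52 CPM in early ICM, and the part of RNA left from the oocyte in these falls was not tested.

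**Figure D5:**
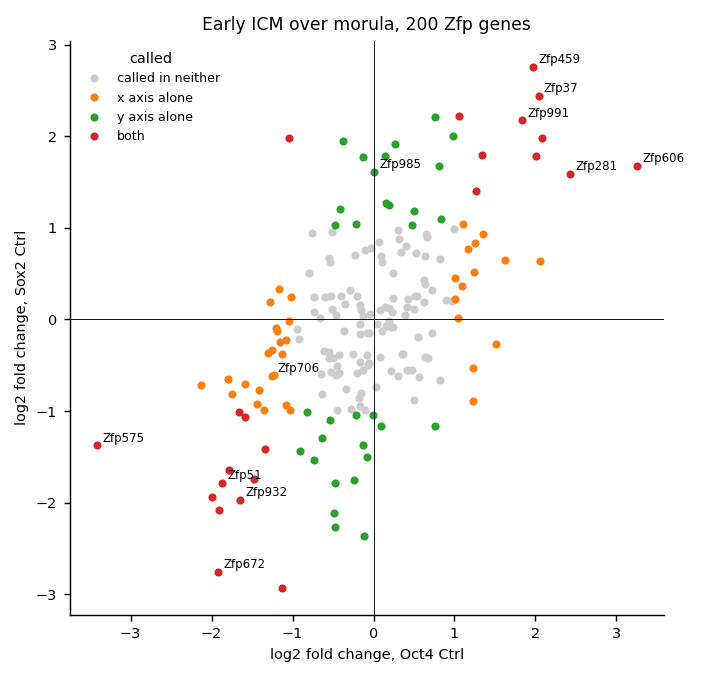
Log2 fold change of early ICM over morula for the 200 Zfp genes in Oct4 Ctrl (x axis) and Sox2 Ctrl (y axis). Each point is 1 gene and colour shows on which axes it was called; 10 genes are called higher and 12 lower on both axes, and 1, Zfp771, is called in opposite directions.

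From early to late ICM 15 members rose and 13 fell in Oct4 Ctrl, 14% where 15.6% of all genes were called, and 5 fell with none higher in Sox2 Ctrl, 2.5% where 2.9% were called. Zfp820, Zfp239, Zfp395 and Zfp606 fell in both, 2% of the members where 0.448% of all genes did. Zfp820 (chr17:21816885-21845772, minus strand; KRAB pattern, 12 fingers) had 55.8, 79.7 and 127.6 CPM in Oct4 Ctrl early ICM and 6.7, 15.2 and 61.8 CPM in late ICM (-1.85 ± 0.31, adjusted p = 1.14e-06). In Sox2 Ctrl it had 33.1, 65.2 and 77.8 CPM in early ICM and 4.33, 22.9 and 40.7 CPM in late ICM (-1.53 ± 0.31, adjusted p = 0.000531). All 8 late embryos were below the early median in both lines, and no KO comparison called Zfp820. Zfp985 rose at this step in Oct4 Ctrl by 1.51 and a step earlier, from morula to early ICM, in Sox2 Ctrl by 1.61.

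Ctrl embryos were set against MWT embryos whose titles give the same stage, and which differ in the genotype of the mother. Another label gives the Oct4 MWT ICMs an earlier stage, and for the Oct4 MWT early ICMs the inhibitor is not given. In the Oct4 ICMs a difference of stage, or of inhibitor in early ICM, cannot be told apart from that of the mother. In Oct4 morulae no member was called, where 0.0646% of all genes were called, and in Oct4 late ICM none, where 0.797% were called. DESeq2 called none in either. An unadjusted p under 0.05 was found for 17 of 200 members and 1005 of 13923 genes in morulae. In late ICM it was found for 27 members and 1939 genes. In Oct4 early ICM Zfp599, Zfp715 and Zfp791 rose, 1.5% where 0.373% of all genes were called. In Sox2 early ICM 9 rose and 3 fell, 6% where 2.58% were called. Markers moved with this last comparison. The summed level of 11 primitive endoderm markers was 1262 CPM (1030 to 1525) in Sox2 MWT and 726.4 CPM (249.9 to 918.7) in Ctrl early ICM, with Gata6 lower and 1 of the 9 tested called. Of 12 trophectoderm markers Cdx2 and Cldn4 were lower. Of 11 epiblast markers Tdgf1 and Fgf4 were called higher and Pou5f1 lower, with sums of 2213 CPM in MWT and 2714 CPM in Ctrl. Their part in the calls was not tested.

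Zfp599, a KRAB-pattern gene (chr9:22247430-22259895, minus strand), was higher in Ctrl than in MWT in both lines. In Oct4 early ICM the 5 MWT embryos had between 10.0 and 30.4 CPM with a median of 24.0 and the Ctrl embryos 43.7, 61.4 and 102 CPM (1.58 ± 0.25, adjusted p = 2.15e-05). In Sox2 early ICM the 7 MWT embryos had 5.17, 8.88 and 16.5 CPM and the Ctrl embryos 20.1, 31.6 and 46.8 CPM (1.62 ± 0.26, adjusted p = 8.62e-06). Neither pair of ranges overlapped. Zfp296 was lower in Sox2 Ctrl than in MWT early ICM, with 222.0, 414.2 and 524.5 CPM in MWT and 45.5, 159.8 and 228.9 CPM in Ctrl (-1.43 ± 0.29, adjusted p = 0.00053). Zfp988 and Zfp980, both of the chromosome 4 group, were higher in Sox2 Ctrl than in MWT by 1.56 and 1.46, as was Zfp992 of the same group, and Zfp703 and Zfp688 were lower, at -1.25 and -1.11, with the call of Zfp688 lost in 5 of 7 alternative fits. The 12 genes of the chromosome 4 group summed to 674.2 CPM (521.1 to 791.7) in Sox2 MWT early ICM, beside 1061 CPM in Ctrl and 708.6 CPM in Sox2-KO. Whether MWT and Ctrl embryos were collected together is not given in the sources used here.

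Genes that work with KRAB zinc finger proteins were examined from a list of 28, of which 27 were tested. In Oct4-KO early ICM none rose and 2 fell, Uhrf1 and Rif1, where 10.9% of all genes were called. In late ICM Pphln1 rose and Uhrf1, Hdac1, Atrx and Rif1 fell, where 18.1% were called. In Sox2-KO early ICM none was called, and in late ICM Dnmt3a rose and Uhrf1 and Rif1 fell, where 6.95% were called. Trim28, the corepressor itself, had means of 1240 and 931.7 CPM in Oct4 Ctrl and KO early ICM and of 1096 and 627.1 CPM in late ICM, where its change was -0.71 (adjusted p = 1.12e-05), under 2-fold. Trim28 in Sox2 late ICM had means of 1163 and 1156 CPM. The median of the list in Oct4-KO was -0.26 in early and -0.44 in late ICM. Of the zinc finger genes left out by the rule, a list of 6 was read, of which 5 were tested, so the 9 left out were not all examined. Zfp36l1 and Zfp57 fell in Oct4-KO at both ICM stages and Zfp42 in late ICM, where 6.11% and 8.85% of all genes fell in early and late ICM. Zfp36l1 fell in Sox2-KO at both stages, where 1.69% and 3.61% fell.

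Markers of the other cell types of the blastocyst moved in some of the KO comparisons. The summed level of 12 trophectoderm markers was 1415 CPM (630.5 to 2419) in Oct4 Ctrl late ICM and 5279 CPM (3123 to 7354) in Oct4-KO, with 11 of the 12 called higher, and 794.9 CPM (282.9 to 2183) and 1615 CPM (892 to 2440) in early ICM. In the Sox2 line it was 524.2 CPM (217.9 to 704.8) in Ctrl and 1857 CPM (1178 to 2965) in KO early ICM, and 1493 CPM (254.8 to 4279) and 2180 CPM (1213 to 3911) in late ICM, where 5 of the 12 were called higher and 1 lower. Ctrl and KO were apart in Oct4 late ICM and Sox2 early ICM and overlapped in the other 2 comparisons. The 11 primitive endoderm markers summed to 741.5 CPM (310.5 to 1498) in Oct4 Ctrl late ICM and 1342 CPM (909.6 to 1613) in Oct4-KO. There Gata6 and Dab2 were called higher and Hnf4a, Gata4, Sox17, Pdgfra and Lama1 lower. In Oct4 early ICM they summed to 818.1 CPM in Ctrl and 1082 CPM in KO. The Sox2 line had overlapping sums of 726.4 CPM (249.9 to 918.7) in Ctrl and 845.1 CPM (598.5 to 942.9) in KO early ICM. In Sox2 late ICM they were 890.5 CPM (408.7 to 1931) and 855.7 CPM (593.9 to 1296), also overlapping. Of the 9 tested, only Dab2 was called in Sox2-KO early ICM, higher, and only Lama1 in late ICM, lower. The 11 epiblast markers went from 2556 to 1493 CPM in Oct4 early ICM and from 2714 to 1574 CPM in Sox2 early ICM, from 3530 to 852.3 CPM in Oct4 late ICM and from 3638 to 1803 CPM in Sox2 late ICM. The part of these shifts in the changes of the Zfp genes was not tested. The replicate labels of the late ICMs begin with 1 or 2, which forms 2 label sets, and within each set all 36 members called in Oct4-KO and all 20 called in Sox2-KO had the direction of the whole group; these embryos also made the calls, so this is a description.

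The promoters of the 2 classes differed in base content. The 102 promoters of members without the KRAB pattern held a median of 17 CpG and the 98 promoters of KRAB-pattern members 8, beside 6 in all 32851 promoters. The KLF/SP box GGGCGGGG stood in 32.353% of the former, 8.163% of the latter and 16.066% of all promoters, on either strand. The ETS core CCGGAAG stood in 16.5% of the 200 member promoters beside 6.907% of all, the Sox core ACAAAG in 10.5% beside 16.462%, and TATAAA in 7.0% beside 12.368%. These shares describe letters in 250 bases and were not tested, and shared duplicates among the KRAB-pattern promoters are not independent.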

How the data were processed

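RNA of 123 single morulae or ICMs from 2 mouse lines was counted at the 3′ end with UMIs. The authors deposited 1 table of whole-number UMI counts per gene, and a table of log2 (rlog) values of the same embryos that was not used here. The submitters' processing notes name cutadapt, TopHat2, Bowtie2, UMI-tools, featureCounts and DESeq2 with mm10, and the study's methods add TRUmiCount and GENCODE vM23. Strand use in counting is not given in the sources used here. Depth ran from 525755 to 1344035 UMIs per embryo, and intervals or errors here cover the spread between embryos.

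The members, the gene lists and the tests were chosen with earlier results of these data known. Groups were read from the sample labels. Genes with a UMI in at least 0.5 of the embryos of 1 stage were kept, 14053 in the 96 Ctrl and KO embryos and 13923 in all 123, and all 200 members passed. The edgeR quasi-likelihood test (TMM scaling, group means, 12 groups, or 16 for Ctrl against MWT) gave log2 fold changes, and Benjamini-Hochberg adjustment ran over all genes tested. The SE after a log2 fold change is that change, without sign, over the square root of the F of the test. It is worked back from the test and not taken from the fit, so it also depends on the small count added there. A gene was called at an adjusted p under 0.05 and a log2 change of at least 1. CPM is UMIs over the embryo's total, times 1000000. The test was tried on simulated counts with known changes.

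Named genes were the 10 members of largest sum, per KO comparison up to 8 called members each way whose higher group averaged 5 CPM or more and whose KO embryos were all above or all below the median of Ctrl, up to 6 each way per stage step called in both lines, up to 5 each way for the difference of effects, all called against MWT, members with a described role, and 3 each side of the threshold. Fingers and KRAB patterns were counted in GENCODE vM21 translations. A 3′ end was taken as matched where 75 or more of its last 300 bases aligned at 98% or more anywhere in a transcript of another gene. Such a match need not lie at the end of the other gene or cover all 300 bases. Promoters are RefSeq entries for GRCm38.p6. Alternatives were other scalings, filters and fold minimum, DESeq2, thinning to 525755 UMIs, other sets of embryos, blocks and, for Oct4 early ICM against MWT, each of the 5 MWT embryos left out. Versions were R 4.3.3, edgeR 4.0.16, limma 3.58.1, DESeq2 1.42.0, Python 3.11.15, pandas 2.3.3, NumPy 2.4.6, Biopython 1.88, BLAST+ 2.17.0 and matplotlib 3.10.9.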

Additional observations from a re-analysis of the deposited data

Results flagged for a closer look

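Of 176 groups of 4 to 10 embryos examined for a single distant value, 11 were flagged, where chance flags about 1 in 20. A Sox2-KO morula (embryo 2) had the highest summed level of the 200 genes in its group, 7473 CPM, and of the KRAB-pattern genes, 2795 CPM. In Sox2-KO late ICM embryo 1-6 had the lowest level of Zfp985, 167.5 CPM. Zfp459 stood at 29.2 CPM in Oct4 Ctrl early ICM embryo 7. Zfp518b stood at 13.0 CPM in Oct4-KO early ICM embryo 5 and at 44.4 CPM in Sox2 MWT early ICM embryo 10. Zfp35 was highest in Oct4 Ctrl morula 4 with 28.6 CPM and in Oct4-KO late ICM embryo 1-7 with 14 CPM. Zfp296 stood at 100.7 CPM in Oct4-KO late ICM embryo 1-5, and Zfp932 at 55.1 CPM in Oct4 Ctrl morula 4 and at 16.6 CPM in Sox2 Ctrl late ICM embryo 1-10.

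The effects of Oct4 and Sox2 loss differed by the test of the difference for 13 members. In early ICM the Oct4-KO effect minus the Sox2-KO effect was -2.95 for Zfp988 (adjusted p = 0.00191), -2.31 for Zfp248 (adjusted p = 0.00105), -1.35 for Zfp979 (adjusted p = 0.00898), -1.21 for Zfp949 (adjusted p = 0.0203), -1.10 for Zfp292 (adjusted p = 0.013) and 1.17 for Zfp444 (adjusted p = 0.00176). In late ICM it was -1.75 for Zfp763 (adjusted p = 0.0372), -1.72 for Zfp329 (adjusted p = 0.0459), -1.70 for Zfp157 (adjusted p = 0.0171), -1.50 for Zfp212 (adjusted p = 0.0128), -1.42 for Zfp428 (adjusted p = 0.0163), -1.04 for Zfp930 (adjusted p = 0.0425) and 4.25 for Zfp575 (adjusted p = 0.00486). For Zfp248 the Sox2-KO change of 2.27 was called and the Oct4-KO change of -0.04 was not, and for Zfp979 the Oct4-KO change of -1.36 was called beside -0.01 in Sox2-KO.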

How the results depend on the processing

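Of 181 calls of named genes, 144 were kept in every refit that used all embryos, and none was reversed. Among those refits thinning to the lowest total lost the most, 27. Calls without the fold minimum are given with the share of members beside that of all genes tested. They were 4 (2% beside 1.47%) in Oct4-KO morula, 39 (19.5% beside 21%) in early and 62 (31% beside 31.7%) in late ICM. Sox2-KO gave 18 (9% beside 7.04%) in early and 39 (19.5% beside 13.8%) in late ICM. The 2 stage steps gave 94 (47% beside 48%) and 56 (28% beside 32.4%) in Oct4 Ctrl. In Sox2 Ctrl they gave 103 (51.5% beside 51.7%) and 11 (5.5% beside 7.21%). The difference of effects in early ICM gave 10 (5% beside 8.12%). Ctrl against MWT gave 7 (3.5% beside 0.639%) in Oct4 early and 1 (0.5% beside 1.58%) in Oct4 late ICM. The single call in Oct4-KO morula, Zfp990, became 3 with scaling by totals or DESeq2, 0 with thinned counts, and 2 with only the groups compared or the Y-linked UMI class as a covariate, and that covariate gave 1 call for Ctrl against MWT in Oct4 late ICM. The 7 differences of effect in late ICM became 4 with all genes tested, with thinned counts and with only the groups compared. Leaving out each of the 5 MWT embryos in turn gave 2 to 4 calls for Oct4 early ICM against MWT.

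Embryos of the same replicate number had correlations of deviations between -0.0799 and 0.2391. With so few shared numbers, whether the numbers pair embryos could not be settled, and the main fits left them out. In Sox2-KO late ICM 3 of 4 pairs were over 0.1 and the lowest was -0.0263, and 6 of 8 embryos correlated best with their own number, against 3 of 6 in Oct4-KO morula and 4 of 8 in Sox2-KO early ICM. Fits with the replicate number as a block, on the embryos whose number both groups share, called 5 members in Oct4-KO morula, 14 in Oct4-KO early ICM, 4 in Sox2-KO early ICM and 16 in Sox2-KO late ICM. The same embryos without the block, an alternative added after the data were seen, gave 2, 11, 3 and 7. Of 46 calls of named genes the smaller set of embryos lost 29 without the block and 20 with it. No paired analysis was possible because the groups share fewer than 2 numbers for Oct4-KO late ICM and Sox2-KO morula. Low counts limit the rest: at 1 UMI per CPM, members at a few CPM have medians set by a few molecules.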
